A study of Mus musculus with 16 samples.

Results

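Interferon-induced ADP-ribosyltransferase genes and their partner Dtx3l, together with Xaf1, were followed through CT26 cells in which Sep15, TR1 or both were knocked down. The genes were named by symbol, 9 in all, with Parp9, Parp10, Parp12, Parp14, Dtx3l and Xaf1 taken as genes that interferons are known to induce and Parp3, Parp4 and Parp6 as family members not known as strong interferon targets. Of these 9 genes, 8 had a probe set that carries their symbol alone, 16 such probe sets in all, among 18193 genes measured in this way and 45037 probe sets tested. The probe set annotated to Parp10 is annotated to Plec as well, the gene beside it on chromosome 15, so that its signal belongs to neither gene in particular and Parp10 was not counted among the measured members. No filter on low signals was applied.

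The study measured mRNA of CT26, a colon carcinoma cell line of BALB/c mice, on Affymetrix mouse genome arrays. Cells were stably transfected with the empty pU6-m3 vector (control) or with the same vector carrying a short hairpin RNA against Sep15 (shSep15), against thioredoxin reductase 1 (shTR1), or against both (shTR1/shSep15), and all lines went through hygromycin selection. Each line was measured on 4 arrays from different mRNA samples, 16 arrays in all, and values are log2 signals from Robust Multi-Array Analysis (RMA), so that a difference of 1 is a 2-fold change. Several clones were made per construct, which clone an array came from is not stated, and nothing says that the mRNA samples came from separate cultures, so that the spread behind each p-value may be technical. The vectors differ by design in the inserted hairpin alone, but hairpin and clone cannot be told apart in any comparison of the lines. The paper investigated more than 1 hairpin sequence and does not say which of them the cells on each array carried. The sequences chosen from the mouse cDNAs as targets are shown, 1 per gene.
Sep15 hairpin target, 19 bases: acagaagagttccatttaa
TR1 hairpin target, 22 bases: atcgctctgacaagcttattag

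Interferons bind receptors at the cell surface and activate Jak kinases, which phosphorylate Stat factors. A complex that contains Stat2 and Irf9 then binds interferon-stimulated response elements (ISRE) in promoters, while Stat dimers bind gamma-activated sites (GAS). PARP enzymes transfer ADP-ribose from NAD to proteins, most of the interferon-induced ones as single units, and several of them restrict viruses. Dtx3l is a ubiquitin ligase of the Deltex family that forms a complex with Parp9, and Xaf1 is a pro-apoptotic protein named for its binding to Xiap, an inhibitor of caspases.

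The targeted genes were read before the members. Selenof, which encodes Sep15, ranged from 10.78 to 11.57 in the control arrays, from 8.02 to 8.29 in shSep15 and from 7.34 to 7.86 in shTR1/shSep15. In the arrays labelled shTR1 it was at 11.57, 11.73, 11.71 and 12.36 in replicates 1 to 4, within or above the control range. Txnrd1, which encodes TR1, ranged from 9.45 to 10.39 in control and from 7.18 to 7.91 in shTR1/shSep15. In the arrays labelled shTR1, Txnrd1 was at 7.85 in replicate 1 and 7.89 in replicate 3, but at 10.57 in replicate 2 and 9.71 in replicate 4, at or above the level of the control arrays. At the next brightest Txnrd1 probe set replicate 2 was at 5.24 and replicate 4 at 5.58, against 5.51 to 6.58 in control. These 2 arrays thus go against their label at the brightest probe set, while Selenof was not reduced in them. Each comparison of the members is also given without them. Mean signals of the 7 measured leukocyte markers lay between 3.75 and 4.28 in every array, near the lower quartile of all genes and arrays (3.82), and those of the 3 endothelial markers between 4.17 and 4.63. Of 8 epithelial markers, which mark the labelled tissue, mean signals were 4.12 to 4.32 in shSep15 and 4.81 to 5.39 in control, and 2 fell in shSep15 cells, Krt18 by 2.68 and Krt20 by 3.28 on the log2 scale (limma adjusted p = 0.0390 and 0.0016). Krt20 passed whichever of the 16 arrays was left out, and Krt18 in 3 of the 16 fits (adjusted p up to 0.129). The other epithelial markers differed by −0.08 (Krt19) to −0.26 (Vil1). Over all 16 arrays Cdh1 (2.31 to 2.80), Vil1 (2.90 to 4.45) and Krt19 (4.10 to 4.58) were low, and Epcam was at 5.44 to 6.59. Whether the low signals were above background was not tested, so these markers say little of the labelled tissue in any line. Krt18 was uneven in the arrays labelled shTR1, from 4.81 to 8.90. The 4 mesenchymal markers had mean signals of 9.48 to 10.69. Whether these marker levels bear on the members was not tested, and in such bulk RNA fewer cells of a type and less RNA per cell cannot be told apart.

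In shSep15 cells the interferon-induced members stood above control. Dtx3l rose 6.41-fold, Parp12 4.92-fold and Xaf1 14.3-fold, and these were 3 of the 8 measured members that passed an adjusted p of 0.05 (limma, Benjamini-Hochberg over all probe sets), against a background of 1.86% of all genes called higher. Parp14 (7.21-fold, adjusted p = 0.113) and Parp9 (3.45-fold, adjusted p = 0.138) had differences of like size that did not pass. The median log2 difference of the 5 measured interferon-induced members was 2.68, against 0.28 for Parp3, Parp4 and Parp6 and −0.02 over all genes. The 4 shSep15 arrays did not overlap with control and were higher in 3 members, Dtx3l, Parp12 and Xaf1, which held for 4.81% of all genes. In Parp3 all 4 lay below, which held for 2.76%. Parp14 and Xaf1 are in a list that the study drew from these same arrays. All members were chosen with earlier results of these data known, so the direction of none of them is independent evidence.

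**Figure D1:**
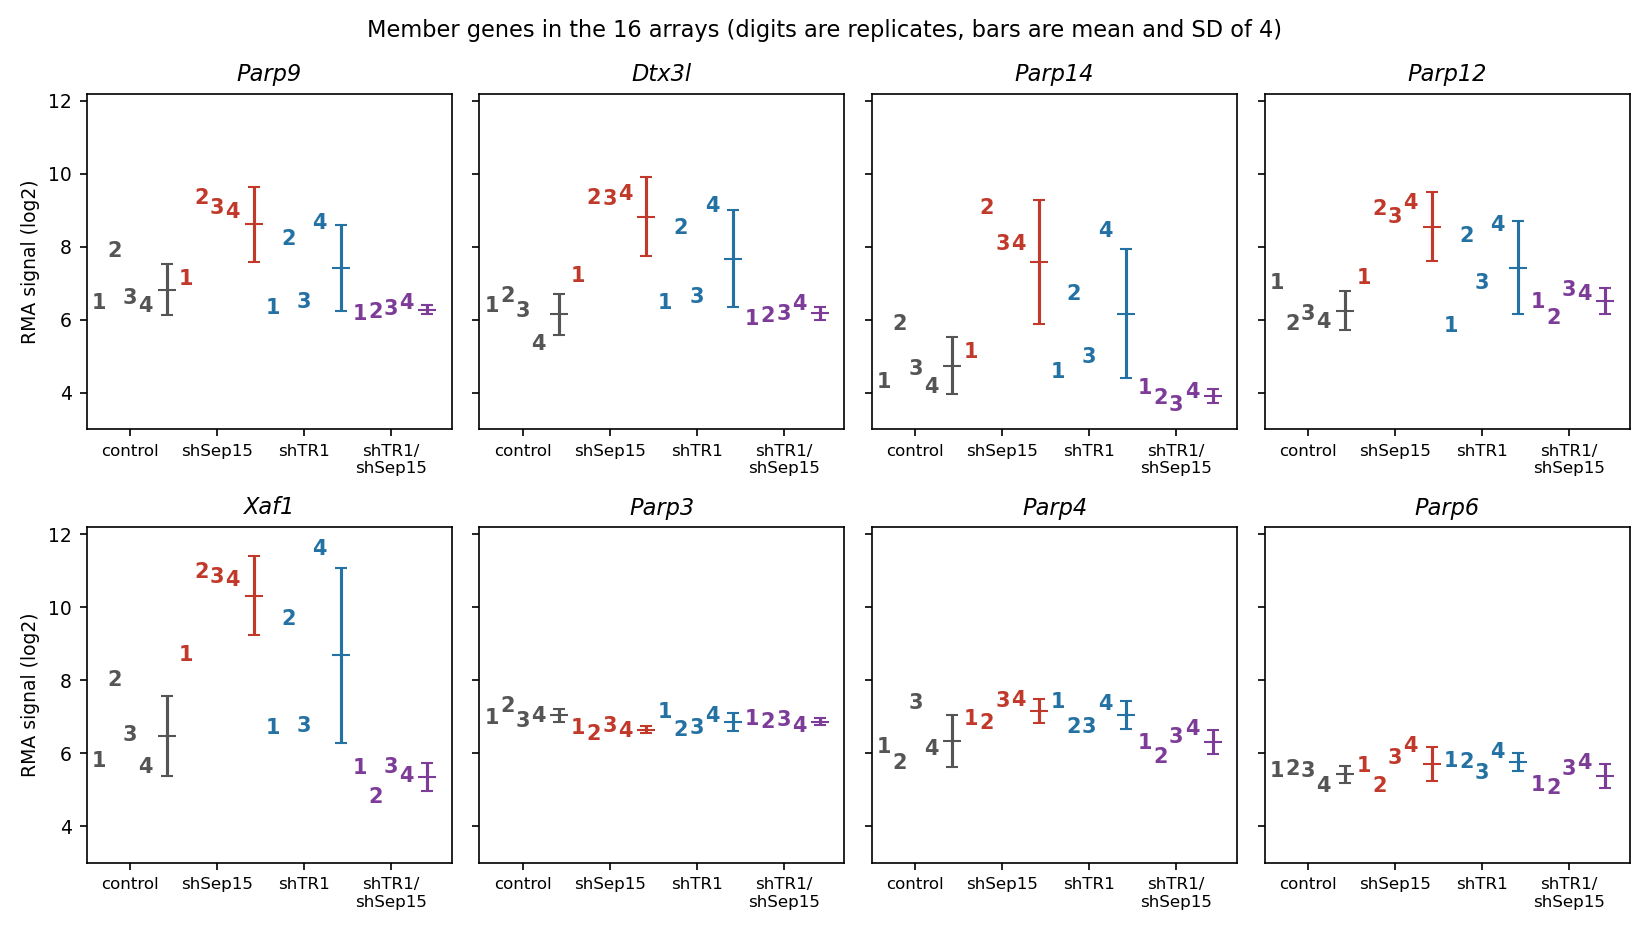
RMA signal (log2, vertical axis) of the 8 measured members in control, shSep15, shTR1 and shTR1/shSep15, with each array drawn as its replicate number and the mean and SD of the 4 arrays as a bar to the right. In Parp9, Dtx3l, Parp14, Parp12 and Xaf1 the shSep15 replicates 2, 3 and 4 and the shTR1 replicates 2 and 4 sit above all control arrays, while the shTR1/shSep15 arrays sit low and close together.

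Dtx3l and Parp9 form a complex, and their genes are neighbours on chromosome 16, with Parp14 on the other side of Dtx3l. Dtx3l was at 6.39, 6.64, 6.23 and 5.32 in control replicates 1 to 4 and at 7.21, 9.33, 9.32 and 9.44 in shSep15 replicates 1 to 4. The lowest shSep15 array was above the highest control array, and shSep15 replicate 1 stood apart from the other three. Dtx3l was at 6.46, 8.53, 6.62 and 9.11 in the arrays labelled shTR1 and at 6.01, 6.10, 6.17 and 6.44 in shTR1/shSep15. The shTR1/shSep15 arrays fell inside the control range, and the arrays labelled shTR1 split into a high pair, replicates 2 and 4, and a pair at control level. The log2 difference of shSep15 from control was 2.68 (standard error 0.59, limma adjusted p = 0.0294, exact permutation p = 0.0286, the lowest value possible with this number of arrays). Leaving out single arrays gave an adjusted p of 0.0101 to 0.111. A further Dtx3l probe set gave 2.42 (adjusted p = 0.0267).

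Parp9, a macrodomain protein with little catalytic activity of its own, was at 6.45, 7.88, 6.61 and 6.38 in control and at 7.11, 9.34, 9.06 and 8.95 in shSep15. Control replicate 2 was higher than shSep15 replicate 1, so these lines overlapped. Parp9 was at 6.32, 8.21, 6.50 and 8.65 in the arrays labelled shTR1 and at 6.15, 6.21, 6.30 and 6.45 in shTR1/shSep15. The same pair of arrays labelled shTR1 was high. The difference of shSep15 from control was 1.79 (standard error 0.55, adjusted p = 0.138). Leaving out single arrays gave an adjusted p of 0.0446 to 0.343, and it passed without shSep15 replicate 1 and with no other array left out.

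Parp14, a large macrodomain enzyme that modifies single sites and was described as a cofactor of Stat6, was at 4.28, 5.87, 4.65 and 4.16 in control and at 5.13, 9.07, 8.08 and 8.07 in shSep15. As in Parp9, control replicate 2 exceeded shSep15 replicate 1 and no other array of either line overlapped. Parp14 was at 4.56, 6.71, 4.97 and 8.43 in the arrays labelled shTR1 and at 4.12, 3.85, 3.66 and 4.03 in shTR1/shSep15, where each array was below each control array. The difference of shSep15 from control was 2.85 (standard error 0.83, adjusted p = 0.113). This too passed without shSep15 replicate 1 alone, with an adjusted p of 0.0258 to 0.286 over the arrays left out. A dimmer Parp14 probe set showed no such difference, with 4.21 ± 0.29 in control and 4.37 ± 0.26 in shSep15 (SD, n = 4 each), so the probe sets of this gene disagree.

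Parp12, a zinc-finger enzyme that restricts several RNA viruses, was at 7.01, 5.88, 6.17 and 5.94 in control and at 7.15, 9.02, 8.82 and 9.20 in shSep15. The lines did not overlap, but control replicate 1 and shSep15 replicate 1 were close. Parp12 was at 5.82, 8.29, 7.01 and 8.60 in the arrays labelled shTR1 and at 6.48, 6.04, 6.83 and 6.70 in shTR1/shSep15, which overlapped with control. The difference of shSep15 from control was 2.30 (standard error 0.55, adjusted p = 0.0461, exact permutation p = 0.0286), with an adjusted p of 0.0147 to 0.163 when single arrays were left out.

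Xaf1 had the largest difference of the members in shSep15 cells. It was at 5.78, 8.0, 6.51 and 5.62 in control and at 8.69, 10.96, 10.84 and 10.75 in shSep15, with each shSep15 array above each control array. It was at 6.70, 9.69, 6.75 and 11.59 in the arrays labelled shTR1 and at 5.58, 4.81, 5.63 and 5.37 in shTR1/shSep15. The array labelled shTR1 replicate 4 held the highest Xaf1 signal of all 16 arrays. The difference of shSep15 from control was 3.84 (standard error 0.92, adjusted p = 0.0466, exact permutation p = 0.0286), and leaving out single arrays gave an adjusted p of 0.0126 to 0.146. A dim second Xaf1 probe set was at 3.68 in control and 4.31 in shSep15 on average and did not pass (adjusted p = 0.395).

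The family members chosen as not strongly interferon-induced spread less. Parp3, which acts at DNA breaks, was at 6.96, 7.29, 6.89 and 7.02 in control and at 6.69, 6.53, 6.74 and 6.61 in shSep15, with each shSep15 array below each control array. The difference of −0.40 (standard error 0.12, adjusted p = 0.128) did not pass, and neither did either of 2 further Parp3 probe sets (−0.09 and −0.29, adjusted p = 0.904 and 0.589). Parp4, the PARP of the vault particle, was at 6.16, 5.72, 7.37 and 6.12 in control and at 6.94, 6.83, 7.43 and 7.46 in shSep15. Control replicate 3 alone reached the shSep15 range, and the difference was 0.82 (standard error 0.30, adjusted p = 0.238). It passed without control replicate 3 alone (adjusted p = 0.0257, with 0.522 the highest over the arrays left out). A further Parp4 probe set gave 0.59 (adjusted p = 0.315). Parp6, an enzyme that modifies single sites, was at 5.51, 5.57, 5.51 and 5.09 in control and at 5.64, 5.10, 5.88 and 6.21 in shSep15. These overlapped, with a difference of 0.29 (standard error 0.22, adjusted p = 0.661).

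Calls in shSep15 against control turned on single arrays. The share of all genes past the adjusted threshold was computed for the main limma fit to all 16 arrays alone, and the counts below have no such share beside them. The count of 3 became 0 without control replicate 4 or without shSep15 replicate 2, 3 or 4. Without control replicate 3 none of Dtx3l, Parp12 and Xaf1 passed, and the 1 member that did was Parp4. The count was 1, Dtx3l, without any of the 4 shTR1/shSep15 arrays, which share the estimate of the spread, and 2 without control replicate 1 or 2 or shTR1 replicate 2 or 3. Without shSep15 replicate 1, the lowest array of its line in each of the 5 interferon-induced members, the count was 5. Without shTR1 replicates 2 and 4 together it was 4, with Parp14 at an adjusted p of 0.0465 beside Dtx3l, Parp12 and Xaf1 (0.00334 to 0.0164). The comparison over all constructs that the methods name, with a pooled variance and no moderation, gave 0 members after adjustment and 7 of 8 at an unadjusted p under 0.05, which held for 14.3% of all genes. Limma gave 7 at that p as well, against 15.3% of genes. By limma these were the 5 interferon-induced members, Parp4, and Parp3, which was lower in shSep15 (−0.40).

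In the arrays labelled shTR1, compared with control, 0 of 8 members passed by limma, 4 had an unadjusted p under 0.05 and the unmoderated test gave 0 adjusted and 1 unadjusted. Over all genes 0.275% passed the adjusted threshold in either direction, and 14.0% had an unadjusted p under 0.05 by limma and 12.8% by the unmoderated test. The log2 differences were 0.59 for Parp9, 1.53 for Dtx3l, 1.43 for Parp14, 1.18 for Parp12 and 2.20 for Xaf1 (adjusted p = 0.33 to 0.657), and −0.17 for Parp3, 0.71 for Parp4 and 0.34 for Parp6. No member had all 4 of these arrays above all control arrays, which held for 3.28% of genes. Replicates 2 and 4 were above every control array in 5 of 5 interferon-induced members, and replicates 1 and 3 in 0 of 5. Without replicates 2 and 4 the differences were −0.42 for Parp9, 0.39 for Dtx3l, 0.03 for Parp14, 0.17 for Parp12 and 0.25 for Xaf1 (adjusted p = 0.891 to 0.997), an alternative chosen after the Txnrd1 values were seen.

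**Figure D2:**
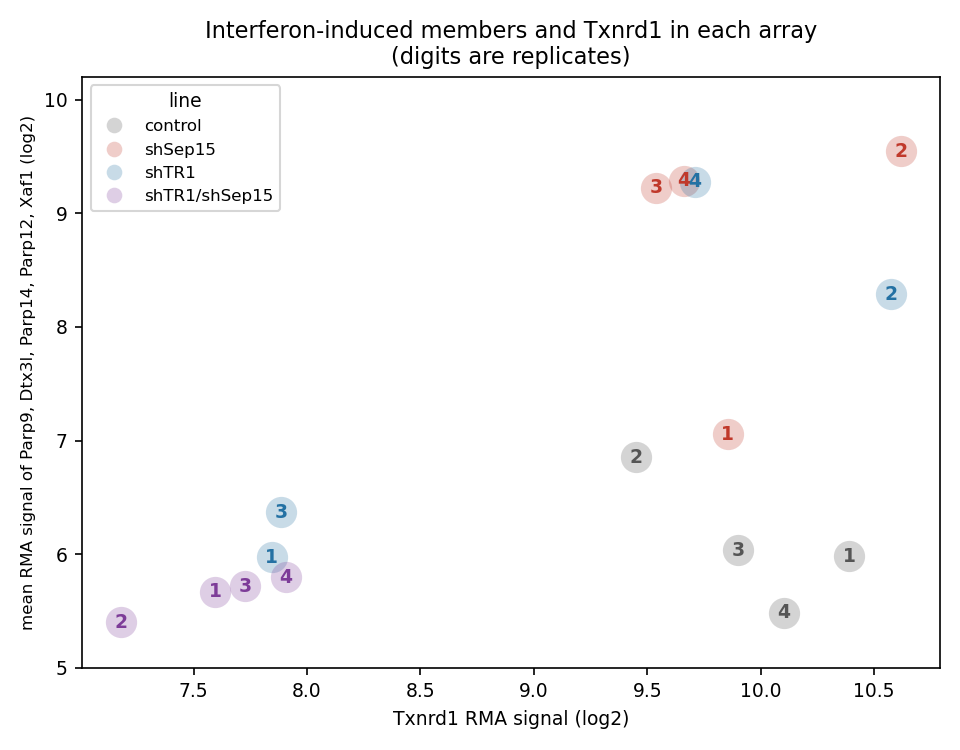
Mean RMA signal of Parp9, Dtx3l, Parp14, Parp12 and Xaf1 (log2, vertical axis) against the Txnrd1 signal (log2, horizontal axis) in each of the 16 arrays, coloured by line and marked by replicate number. The arrays labelled shTR1 replicates 2 and 4 lie at 8.29 and 9.28 beside shSep15 replicates 2 to 4, and replicates 1 and 3 lie at 5.97 and 6.37 near the shTR1/shSep15 arrays.

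The level of the group in each array is given by the mean signal of the 5 interferon-induced members. It was 5.98, 6.85, 6.03 and 5.48 in control, 7.06, 9.55, 9.22 and 9.28 in shSep15, and 5.67, 5.40, 5.72 and 5.80 in shTR1/shSep15. In the arrays labelled shTR1 it was 5.97, 8.29, 6.37 and 9.28. The high arrays among these were the same 2 in which Txnrd1 was at control level. The part of Txnrd1 in this split was not tested. In the shSep15 line Txnrd1 was 9.86 in replicate 1, where the members were lowest, and 9.54 to 10.62 in the others. Selenof was 8.02 in that replicate, the lowest value of its line, which ranged narrowly up to 8.29.

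In the line with both hairpins no member passed the test against control. Since the clone behind each array is not stated, hairpin and clone cannot be told apart in this comparison, as in the others. In shTR1/shSep15 against control 0 of 8 members passed, 0 had an unadjusted p under 0.05 by limma or by the unmoderated test, and 0.0385% of all genes passed in either direction (8.79% at the unadjusted p by limma and 7.57% by the unmoderated test). The log2 differences were −0.55 for Parp9 (95% interval −1.73 to 0.63), 0.03 for Dtx3l (−1.22 to 1.29), −0.82 for Parp14 (−2.60 to 0.95), 0.26 for Parp12 (−0.92 to 1.44) and −1.13 for Xaf1 (−3.10 to 0.84). In Parp14 all 4 arrays lay below all control arrays (exact permutation p = 0.0286), which held for 1.35% of genes. These Parp14 signals, with a mean of 3.92, lie near the lower quartile of all genes and arrays (3.82), and whether they were above background was not tested. Parp3, Parp4 and Parp6 differed from control by −0.17, −0.03 and −0.05. Without shTR1 replicates 2 and 4, 0 of 8 passed and each difference had the same value, since neither of these lines lost an array.

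Set directly against the double knockdown, shSep15 cells had higher signals of 4 of 8 members, with 1.9% of all genes called higher. Xaf1 rose by 4.96 (standard error 0.92, adjusted p = 0.00946), Parp14 by 3.67 (adjusted p = 0.0287, against the low signals just described), Dtx3l by 2.65 (adjusted p = 0.0259) and Parp9 by 2.34 (adjusted p = 0.0369). Parp12, whose mean in shTR1/shSep15 cells was 0.26 above control, differed by 2.04 (adjusted p = 0.0666), and Parp3, Parp4 and Parp6 by −0.22, 0.85 and 0.33 (adjusted p = 0.48, 0.195 and 0.621). At the further Parp4 probe set the difference was 0.97 (adjusted p = 0.0527). The dim further probe sets of Xaf1 and Parp14 gave 0.67 and 0.35 and did not pass (adjusted p = 0.333 and 0.484). That of Dtx3l gave 2.68 and passed (adjusted p = 0.0126). All 4 shSep15 arrays were above all 4 shTR1/shSep15 arrays in 6 members, the 5 interferon-induced ones and Parp4, against 8.27% of genes, and below them in Parp3, against 9.5%. Xaf1 passed whichever of the 16 arrays was left out. The count was 1 without shSep15 replicate 2, 3 or 4 or any of the shTR1/shSep15 arrays, and 5, with Parp12, without shSep15 replicate 1, without shTR1 replicate 1 or without shTR1 replicates 2 and 4 together. With the arrays of these 2 lines alone it was 6, with Parp12 (adjusted p = 0.0161) and Parp4 (adjusted p = 0.0305), and the unmoderated test gave 1 member after adjustment. The share of all genes called was not computed for these other fits, so their counts cannot be set against the 1.9%.

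Between the arrays labelled shTR1 and shTR1/shSep15 no member passed (0.11% of genes did in either direction), and 4 members had an unadjusted p under 0.05, which held for 11.3% of genes. The mean differences were 1.14 for Parp9, 1.5 for Dtx3l, 2.26 for Parp14, 0.92 for Parp12 and 3.33 for Xaf1, and −0.001 for Parp3, 0.73 for Parp4 and 0.39 for Parp6. They rested on shTR1 replicates 2 and 4 to a large part, and without them were 0.13 for Parp9, 0.36 for Dtx3l, 0.85 for Parp14, −0.10 for Parp12 and 1.38 for Xaf1 (adjusted p = 0.805 to 0.993), and 0.04, 0.75 and 0.25 for Parp3, Parp4 and Parp6. All 4 of these arrays lay above all 4 shTR1/shSep15 arrays in 4 members, Parp14, Dtx3l, Xaf1 and Parp4, against 5.32% of genes. The single knockdowns, shSep15 minus shTR1, differed by 1.19 for Parp9, 1.15 for Dtx3l, 1.42 for Parp14, 1.12 for Parp12 and 1.63 for Xaf1, and by −0.22 for Parp3, 0.11 for Parp4 and −0.06 for Parp6. None passed (0.945% of genes did), and 1 had an unadjusted p under 0.05 (Parp9, 0.0483), against 9.25% of genes. No member had all shSep15 arrays above all arrays labelled shTR1, which held for 3.01% of genes. Without shTR1 replicates 2 and 4, shSep15 exceeded the remaining pair by 2.13 to 3.59 in the interferon-induced members, and 1 member, Xaf1, passed (adjusted p = 0.0375).

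**Figure D3:**
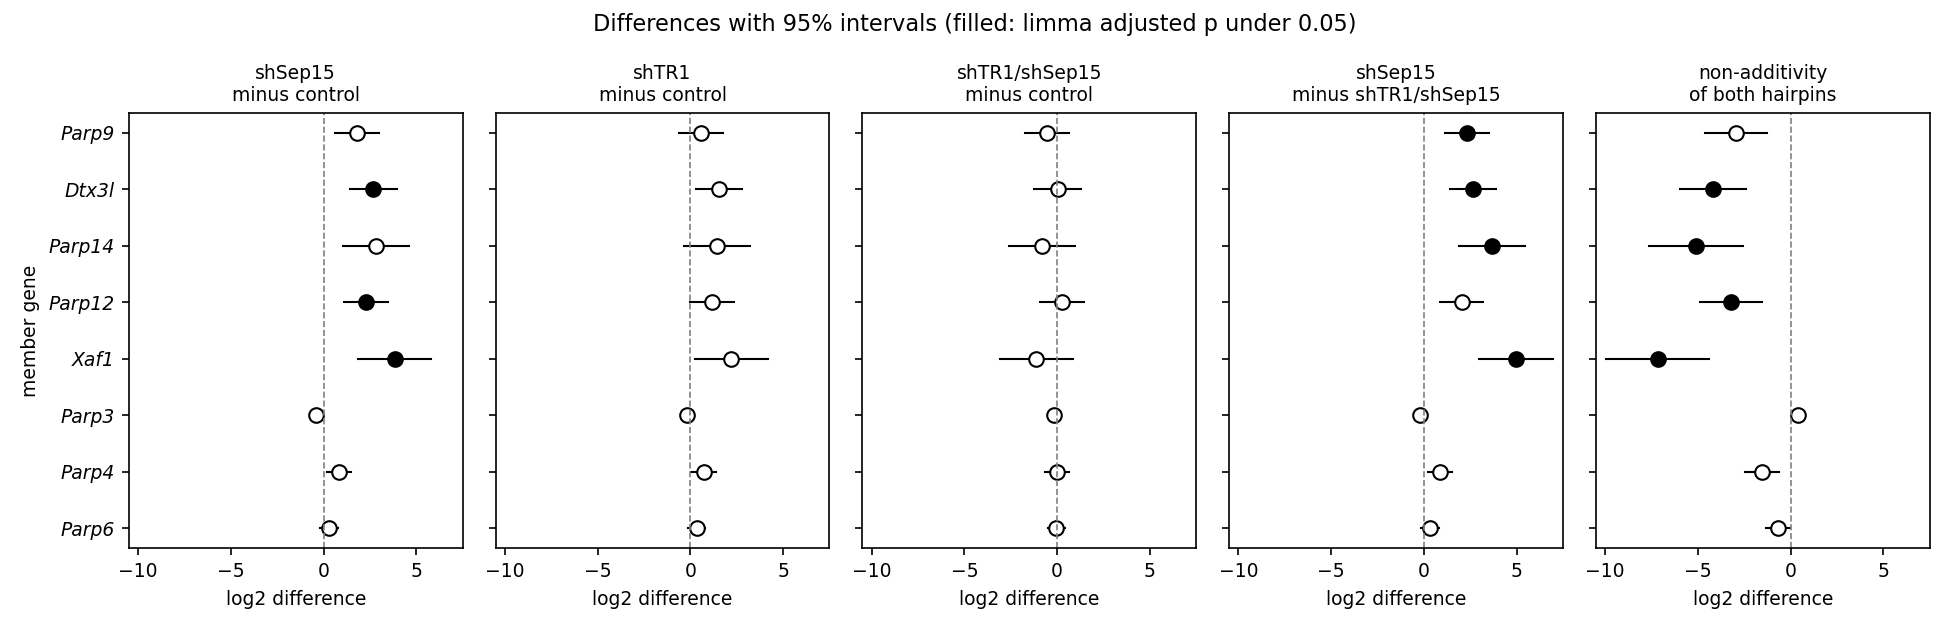
Log2 difference (horizontal axis) with its 95% interval for each member gene in 5 comparisons, filled where the limma adjusted p was under 0.05. Filled points lie to the right for Dtx3l, Parp12 and Xaf1 in shSep15 minus control and to the left for Dtx3l, Parp14, Parp12 and Xaf1 in the non-additivity of both hairpins, while shTR1/shSep15 minus control has none.

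The effect of both hairpins was also compared with the sum of the effects of each, a difference called non-additivity, which is negative where the double knockdown lies below that sum. It was −7.17 for Xaf1 (standard error 1.30, adjusted p = 0.00944), −5.10 for Parp14 (adjusted p = 0.032), −4.18 for Dtx3l (adjusted p = 0.0149) and −3.22 for Parp12 (adjusted p = 0.0395). These were 4 of 8 members, against 2.75% of genes called lower. Parp9 had −2.93 (adjusted p = 0.0613), Parp4 −1.56 (adjusted p = 0.0709), Parp6 −0.67 and Parp3 0.40. The further Parp4 probe set had −1.36 (adjusted p = 0.0522). The dim further probe sets of Xaf1 and Parp14 had −0.88 and −0.29 and did not pass (adjusted p = 0.319 and 0.6). That of Dtx3l had −3.97 and passed (adjusted p = 0.0106). Dtx3l and Xaf1 passed whichever of the 16 arrays was left out. The count was 2 without control replicate 4, shSep15 replicate 3 or 4, shTR1 replicate 2 or 4, or any of the shTR1/shSep15 arrays, 3 without shSep15 replicate 2 or shTR1 replicate 3 or, with Parp4 as the third, without control replicate 3, and 5 without control replicate 2, shSep15 replicate 1 or shTR1 replicate 1. Without shTR1 replicates 2 and 4 together it was 1, with Xaf1 at −5.21 (adjusted p = 0.0153). Then Dtx3l was at −3.04, Parp14 at −3.70, Parp12 at −2.20 and Parp9 at −1.92 (adjusted p = 0.0555 to 0.261).

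The interferon-induced members rose and fell together across the arrays, and promoters of members are shown with interferon motifs, from RefSeq windows of 250 bases before to 50 after the gene start (build GRCm38.p6). A window was found for 6 of the 9 genes, Parp12, Dtx3l, Xaf1, Parp3, Parp4 and Parp6. Motifs searched on both strands were the ISRE core, TTTC followed by any 2 bases and TTTC (in 3.44% of 32851 windows), the GAS motif TTCNNNGAA (8.3%) and the shorter GAAANGAAA (3.17%). Xaf1 is printed as the member with the largest difference and Dtx3l as the one with the smallest adjusted p in shSep15 against control. Parp4 is printed because its window holds ISRE cores. Parp4 differed from control by 0.82 in shSep15, 0.71 in the arrays labelled shTR1 and −0.03 in shTR1/shSep15, none past the threshold. Its correlations with the interferon-induced members were 0.445 to 0.599 across the arrays. After the line means were taken out they were −0.0585 to 0.122. Sequences run 5′ to 3′ along the gene, with motif matches in capitals.
Xaf1 (chr11:72301379-72301678, plus strand): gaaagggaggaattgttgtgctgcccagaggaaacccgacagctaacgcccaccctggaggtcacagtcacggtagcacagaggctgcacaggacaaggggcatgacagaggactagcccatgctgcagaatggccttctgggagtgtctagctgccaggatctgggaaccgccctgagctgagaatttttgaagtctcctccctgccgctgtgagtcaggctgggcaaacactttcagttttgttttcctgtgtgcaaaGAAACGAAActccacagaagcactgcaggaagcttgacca
Dtx3l (chr16:35938978-35939277, minus strand): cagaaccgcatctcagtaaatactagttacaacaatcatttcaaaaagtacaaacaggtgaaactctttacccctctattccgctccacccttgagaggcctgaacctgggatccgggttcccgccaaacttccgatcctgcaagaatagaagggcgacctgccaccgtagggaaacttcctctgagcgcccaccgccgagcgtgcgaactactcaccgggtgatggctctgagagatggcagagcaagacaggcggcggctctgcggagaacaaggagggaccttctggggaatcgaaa
Parp4 (chr14:56575369-56575668, plus strand): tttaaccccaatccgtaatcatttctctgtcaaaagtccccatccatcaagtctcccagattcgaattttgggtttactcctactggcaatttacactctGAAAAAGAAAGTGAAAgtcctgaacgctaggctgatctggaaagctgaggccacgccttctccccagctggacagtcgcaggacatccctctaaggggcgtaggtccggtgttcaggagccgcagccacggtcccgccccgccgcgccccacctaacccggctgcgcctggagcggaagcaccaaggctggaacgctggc

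With the gene start counted as 0, the Xaf1 window held GAAACGAAA at 10. The Parp4 window held 2 overlapping matches of the ISRE core on the other strand, GAAAAAGAAA at −150 and GAAAGTGAAA at −144, although Parp4 was chosen as a member not known as a strong interferon target and did not pass in shSep15 cells. The windows of Dtx3l, Parp12, Parp3 and Parp6 held no match to these motifs, which says nothing of sites elsewhere.

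Genes around the members were described from lists. Of 9 other ADP-ribosyltransferases, 1 rose in shSep15 cells against control, Parp11, an enzyme that modifies single sites, by 1.98 (standard error 0.43, limma adjusted p = 0.0276). Parp11 was at 6.69, 4.92, 6.06 and 5.70 in control and at 6.90, 7.73, 8.21 and 8.44 in shSep15, with no overlap, and its non-additivity was −2.90 (adjusted p = 0.0197). The rise did not pass without control replicate 2 or 4 or shSep15 replicate 3 or 4 (adjusted p up to 0.107). The non-additivity did not pass without shSep15 replicate 3 or 4 (up to 0.0511) or without shTR1 replicates 2 and 4 (−2.28, adjusted p = 0.0928). The median difference of these 9 genes was 0.19, and the founding members Parp1 and Parp2 differed by −0.03 and −0.05. Of 7 measured ADP-ribose readers and erasers, 1 rose, Chd1l, a chromatin remodeller with a macrodomain, by 1.23 (adjusted p = 0.029), with a list median of 0.29. Chd1l did not pass without control replicate 4 or shSep15 replicate 2, 3 or 4 (adjusted p up to 0.0931). The other Deltex ligases differed by −0.19 (Dtx1) to 0.07 (Dtx2), with 0 of 4 past the threshold, so that Dtx3l was the Deltex gene measured here that did pass.

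Xiap, its family and its antagonists had 0 of 6 past the threshold in shSep15 against control, with a median of −0.20. They ran from −1.30 for Birc3 (adjusted p = 0.358) to 0.27 for Diablo (adjusted p = 0.293), and Xiap itself differed by −0.84 (adjusted p = 0.129). The Birc3 value rested on control replicate 2, at 8.80 where the other control arrays were at 5.28 to 5.73, and was −0.46 without it. Xiap lay between −1.06 and −0.65 without single arrays, with 1 of 16 fits past the threshold (adjusted p = 0.0389). Diablo, the antagonist released from mitochondria, had a non-additivity of −0.84 (adjusted p = 0.0102), which passed whichever of the 16 arrays was left out but not without shTR1 replicates 2 and 4 (adjusted p = 0.0577). Of 9 measured genes of NAD synthesis and turnover, which supplies the substrate of PARP enzymes, 0 passed against control and differences ran from −0.30 (Nadsyn1, −0.03 without control replicate 2) to 0.40 (Nmnat1, 0.22 without control replicate 3). In shSep15 against shTR1/shSep15, Nmnat1 was higher by 0.80 and Nmnat2 lower by 1.11 (adjusted p = 0.0263 for each). With each of the 16 arrays of all lines left out in turn, the adjusted p reached 0.0889 and 0.0847. Nmnat1 passed in 10 of these 16 fits and Nmnat2 in 9.

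Interferon receptors, kinases, factors and feedback genes had 1 of 13 higher and 0 lower in shSep15 against control, with a median of 0.15. The gene was Usp18, the protease that removes Isg15 and dampens the type I interferon receptor, at 3.73, 5.0, 4.79 and 3.78 in control and 7.84, 11.39, 10.90 and 11.27 in shSep15. It rose by 6.03 (standard error 1.22, adjusted p = 0.0187) and, like the members, was high in the arrays labelled shTR1 replicates 2 and 4 (10.47 and 11.73) and at 3.54 to 3.77 in shTR1/shSep15. The rise did not pass without control replicate 4 or shSep15 replicate 3 or 4 (adjusted p up to 0.0725). Usp18 is also in the list that the study drew from these arrays, so its direction is no independent evidence. The 2 lowest control and all shTR1/shSep15 signals lie below the lower quartile of all genes and arrays, and whether they were above background was not tested. Irf9 differed by 1.85 from control (adjusted p = 0.132) and rose by 2.43 over shTR1/shSep15 (adjusted p = 0.0328), which did not pass without shSep15 replicate 2, 3 or 4 or any shTR1/shSep15 array (adjusted p up to 0.101). Irf1 had the lowest difference, −1.11 (adjusted p = 0.588), and this rested on control replicate 2, at 11.95 where the other control arrays were at 7.65 to 7.99, with −0.07 without it. The receptor genes Ifnar1, Ifnar2, Ifngr1 and Ifngr2 differed by −0.03, 0.45, −0.42 and −0.33, none past the threshold. Without control replicate 2, Ifngr1 differed by −0.05 and Ifnar1 by 0.14. Jak2 had a non-additivity of 1.39 (adjusted p = 0.0241), opposite in sign to that of the interferon-induced members. It did not pass without shSep15 replicate 1 or shTR1/shSep15 replicate 3 or 4 (adjusted p up to 0.0535) or without shTR1 replicates 2 and 4 (adjusted p = 0.0777).

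**Figure D4:**
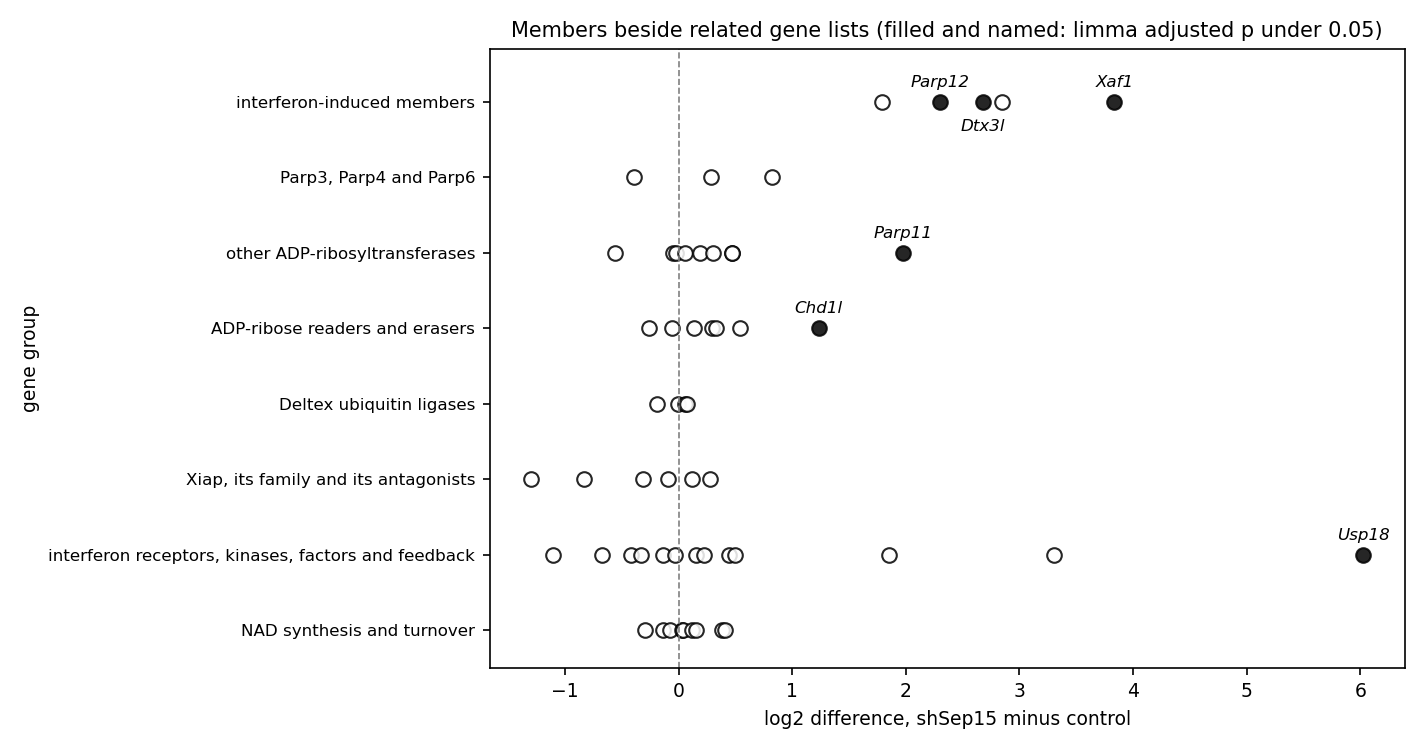
Log2 difference of shSep15 minus control (horizontal axis) for the members and for the genes of 6 related lists, 1 point per gene, filled and named where the limma adjusted p was under 0.05. Dtx3l, Parp12 and Xaf1 stand between 2.30 and 3.84, and of the list genes Parp11, Chd1l and Usp18 are filled.

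The members also resembled each other array by array. Across the 16 arrays the 10 pairs of the 5 interferon-induced members had Pearson correlations of 0.864 to 0.979, and of 0.734 to 0.966 after the line means were taken out. These describe 16 arrays that share lines and normalization. The genes outside the membership whose pattern was most like the mean of the 5 were Igtp (r = 0.978), Usp18 (0.977), Oas1a (0.973), Phf11d (0.972), Gbp7 (0.97), Irf9 (0.967), Irf7 (0.964), and Trim25, Irgm2 and Gbp2 (each 0.963), over 16 arrays. By member, the nearest gene was Parp14 for Parp9 and Parp9 for Parp14 (0.979), Bst2 for Dtx3l (0.977), Trim14 for Parp12 (0.966) and Usp18 for Xaf1 (0.974). For the other members it was Sar1a for Parp3 (0.896), Cox7a2l for Parp4 (0.924) and Plekha5 for Parp6 (0.874).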

How the data were processed

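CT26 cells of 4 lines, with 4 arrays each, were measured on Affymetrix mouse genome arrays. The authors made log2 signals per probe set with RMA (its version is not given in the sources used here), and the deposited values were used without change. Samples were grouped by the labels. Of 45101 probe sets, 64 control probe sets were left out and 45037 tested, of which 34945 carry 1 symbol, 932 several and 9160 none. Symbols were updated through the gene number for 34741. For each of 18193 genes, the brightest probe set on average over the 16 arrays was taken among those annotated to that gene and no other. There was no depth to report, and the number of arrays limits the precision.

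A mean per line was fitted to all 16 arrays with limma (version 3.58.1, R 4.3.3) and moderated with 12 residual and 2.58 prior degrees of freedom. P-values of the 7 comparisons were adjusted by Benjamini-Hochberg over all 45037 probe sets, with a threshold of 0.05. Exact two-sided permutation tests used scipy 1.17.1 in Python 3.11.15, and figures matplotlib 3.10.9. The test was tested on simulated data. The 8 measured members were named in each comparison, and from each list the genes past the threshold or, where none was, the extremes. The members and lists were chosen with earlier results of these data known. Alternatives were an intensity trend, the compared lines alone, median centring, further quantile normalization, the methods' ANOVA, bright probe sets alone, other probe sets for a gene, the replicate number as a block and each array left out. Added after seeing the data were single arrays left out for genes of the lists, array weights and leaving out shTR1 replicates 2 and 4, those with control replicate 2, or control replicate 2 with shSep15 replicate 1.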

Additional observations from a re-analysis of the deposited data

Results flagged for a closer look

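Of 32 groups of 4 arrays (8 members in 4 lines), 4 held an array far from the others by Dixon's ratio, and chance alone flags about 1 in 20 groups. Parp9 was at 7.88 in control replicate 2, with the next control array at 6.61. Dtx3l was at 7.21 in shSep15 replicate 1, with the next array at 9.32, and Xaf1 was at 8.69 in the same array, with the next at 10.75. Parp6 was at 5.09 in control replicate 4, with the next array at 5.51.

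The effect of the Sep15 hairpin differed between cells with and without the TR1 hairpin in 4 members by limma's test of that difference. The difference was −3.22 for Parp12, −5.10 for Parp14, −4.18 for Dtx3l and −7.17 for Xaf1 on the log2 scale, and all 4 tests include the arrays labelled shTR1 replicates 2 and 4. Without these arrays Xaf1 passed at −5.21 (adjusted p = 0.0153) and the other 3 did not (adjusted p = 0.0555 to 0.173).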

How the results depend on the processing

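Of 56 log2 differences (8 members in 7 comparisons), 46 kept their sign under each alternative run, and 10 changed it under some. Counts of members past the threshold moved as follows. The share of all genes past it was not computed under these alternatives, so a higher count may go with more genes called in general. In shSep15 minus control the count of 3 was 1 with the compared lines alone, 0 by the methods' ANOVA, and 5 with array weights, without control replicate 2 and shSep15 replicate 1, or without shTR1 replicates 2 and 4 and control replicate 2. Single arrays left out gave 0 to 5. In shSep15 minus shTR1/shSep15 the count of 4 was 1 by the ANOVA, 6 with the compared lines alone or with array weights, 5 without shTR1 replicates 2 and 4, and 1 to 5 without single arrays. In non-additivity the count of 4 was 6 with bright probe sets alone, the mean of all probe sets or array weights, the ANOVA gave 2, single arrays left out 2 to 5, leaving out shTR1 replicates 2 and 4 gave 1, and also leaving out control replicate 2 gave 2. Under these last settings shSep15 minus shTR1 had 1 and 2 members, and shTR1 minus shTR1/shSep15 had 1 with array weights. The cause of these moves was not tested. The sign of small differences changed as follows. For shTR1/shSep15 minus control, Parp4 was 0.0195 under median centring (−0.23 to 0.32 without single arrays), Dtx3l −0.11 over the mean of its probe sets (−0.24 to 0.20), Parp3 0.00975 at its most variable probe set, and Parp6 0.0017 without control replicate 2 and either shSep15 replicate 1 or shTR1 replicates 2 and 4 and 0.13 with weights (−0.17 to 0.0575). For shTR1 minus shTR1/shSep15, Parp3 was 0.00975 under median centring, 0.06775 over its probe sets, 0.13 at the most variable one and 0.0437 without shTR1 replicates 2 and 4, whether control replicate 2 was kept or not (−0.0917 to 0.0772), and Parp12 was −0.10 under these last settings. For shTR1 minus control, Parp9 was −0.42 without shTR1 replicates 2 and 4 and −0.0678 also without control replicate 2, and Parp3 was 0.14 at its most variable probe set, where its non-additivity was −0.0397. For shSep15 minus shTR1, Parp6 was 0.0865 without shTR1 replicates 2 and 4, whether control replicate 2 was kept or not, and 0.0913 with weights (−0.22 to 0.15).

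With the replicate number as a block the counts were 2 in shSep15 minus control, 4 in shSep15 minus shTR1/shSep15 and 5 in non-additivity, and 0 elsewhere. Same-numbered arrays of different lines had correlated deviations above 0.1 in 8 of 24 pairs (−0.53 to 0.47, median −0.05). Arrays with different numbers ran from −0.54 to 0.53. With such a spread these correlations cannot decide whether same-numbered arrays shared a culture or a batch, which the labels do not state.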

Other observations

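The probe set annotated to both Parp10 and Plec was at 6.0, 7.06, 7.08 and 5.41 in control, at 6.99, 8.56, 8.02 and 8.22 in shSep15, at 6.33, 7.72, 6.19 and 8.01 in the arrays labelled shTR1 and at 5.61, 5.28, 6.02 and 6.42 in shTR1/shSep15. It differed by 1.56 in shSep15 from control (limma adjusted p = 0.141), by 2.12 in shSep15 from shTR1/shSep15 (adjusted p = 0.0307), and had a non-additivity of −2.79 (adjusted p = 0.0427). Parp10 and Plec are neighbours on chromosome 15, and these arrays do not say which of them gave the signal.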
